A study of Mus musculus with 2 samples.

Results

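Histone deacetylases remove acetyl groups from lysines of histones and other proteins, and most of the nuclear ones act as subunits of corepressor complexes. The 9 zinc-dependent deacetylase genes Hdac1 to Hdac8 and Hdac10, together with the corepressor gene Ncor1, were taken by gene symbol from the deposited tables, which gives 10 genes of 23961 symbols. All 10 had a single row in each table, so no rows had to be summed, and all 10 stood at 1 FPKM or more. The study sequenced RNA of bone marrow haematopoietic stem cells sorted from untreated C57BL/6 mice kept under a light and dark cycle. It holds 1 library with the label Per2wt, for wild-type mice, and 1 with the label Per2def, for mice deficient in Per2, a repressor of the circadian clock. The sources used here do not name the allele, the sort markers, the hour of collection or the number of animals per library.

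Deacetylases fall into classes. Class I enzymes (HDAC1, HDAC2, HDAC3 and HDAC8) are mainly nuclear, and HDAC1 and HDAC2 form the catalytic core of the SIN3, NuRD and CoREST complexes. HDAC3 works in the NCoR complex, where contact with the scaffold protein switches on its activity, and the clock receptor REV-ERBα (Nr1d1) recruits this complex to genes that it represses. Class IIa enzymes (HDAC4, HDAC5 and HDAC7) have little deacetylase activity of their own, bind MEF2 transcription factors and leave the nucleus when kinases phosphorylate them. Class IIb enzymes act largely outside the nucleus, HDAC6 on tubulin and HDAC10 on acetylated polyamines.

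Each value below is 1 FPKM figure per library (fragments corrected for transcript length and library size), so levels can be set side by side between genes. No genotype has a replicate, so no error and no test can be given, and a difference is one between libraries, not between genotypes. Differences are log2(FPKM + 1) in the Per2def-labelled library minus the same in the Per2wt-labelled library. That scale understates the change of low genes, so plain ratios of FPKM are given too. The files hold no read totals, so absolute depth and counting intervals are unknown. Among 3232 genes of low level, the most common ratio of FPKM was that of a Per2def-labelled library 1.24 times as deep. Per2 itself stood at 1.96 FPKM in the Per2wt-labelled library and 6.16 FPKM in the Per2def-labelled library, which is not the direction of a lost transcript. All directions are therefore between libraries as labelled.

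RefSeq promoter windows (GRCm38.p6, 300 bases, 250 of them before the start) were matched by symbol for 7 of the 10 genes. The 5 genes with a single window are shown, since they run from the second most abundant deacetylase, Hdac2, to the least abundant ones, Hdac4 and Hdac6. Each line gives the 150 bases before the start, 5′ to 3′ on the gene's strand, with CCAAT boxes and GC boxes (GGGCGG) on either strand in capitals.
Hdac2 (chr10:36974394-36974543, plus strand): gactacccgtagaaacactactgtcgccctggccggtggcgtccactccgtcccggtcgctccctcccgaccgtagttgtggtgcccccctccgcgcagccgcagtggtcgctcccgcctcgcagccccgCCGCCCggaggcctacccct
Hdac4 (chr1:92180342-92180491, minus strand): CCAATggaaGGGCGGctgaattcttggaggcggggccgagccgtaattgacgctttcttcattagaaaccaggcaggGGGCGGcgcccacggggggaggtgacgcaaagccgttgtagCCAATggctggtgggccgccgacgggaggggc
Hdac5 (chr11:102230173-102230322, minus strand): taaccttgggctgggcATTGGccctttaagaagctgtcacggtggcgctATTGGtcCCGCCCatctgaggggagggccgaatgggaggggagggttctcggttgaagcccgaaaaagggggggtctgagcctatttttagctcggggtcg
Hdac6 (chrX:7947890-7948039, minus strand): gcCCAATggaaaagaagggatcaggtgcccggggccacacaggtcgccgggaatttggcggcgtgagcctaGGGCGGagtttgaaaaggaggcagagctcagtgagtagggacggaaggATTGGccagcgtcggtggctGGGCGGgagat
Hdac8 (chrX:102505159-102505308, minus strand): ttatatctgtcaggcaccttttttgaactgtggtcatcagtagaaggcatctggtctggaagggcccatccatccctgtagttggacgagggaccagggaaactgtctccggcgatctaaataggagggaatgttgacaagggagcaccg

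The Hdac4, Hdac5 and Hdac6 stretches each held 2 CCAAT boxes, whereas those of Hdac2 and Hdac8 held none. Over the same 150 bases a CCAAT box was found in 3 of all 11 windows of the 7 genes, none of them of Hdac7 or Ncor1, and in 24.5% of the 32851 windows of all genes. GC boxes, the letters bound by SP1 family factors, were found in 5 of the 11, those of Hdac2, Hdac4, Hdac5 and Hdac6 and 1 of Ncor1, and in 28.6% of all windows. CG dinucleotides over the whole window numbered 36 for Hdac2 and 6 for Hdac8, an X-linked gene whose window was also the least rich in G and C of the 5 (49.7%). Letters bound by clock factors were then searched on both strands of all 11 windows of the 7 genes. The E-box CACGTG, bound by CLOCK and BMAL1, was found once, at Hdac5, and it occurs in 7.15% of all windows. It begins at base 4, with the RefSeq start as base 1. That start lies before the Hdac5 gene of GENCODE M21, which reads on the minus strand from 102230166, so the motif lies across the GENCODE start. The hexamer AGGTCA, bound by REV-ERB and ROR receptors among others, was found once, in 1 of 4 windows of Hdac7, against 16.3% of all windows. The D-box TTATGTAA, bound by the PAR bZIP factors, was found in no member window and in 0.938% of all windows. None of these motifs overlaps another in its letters, and a match here is a description of letters and not a bound site. The 30 bases around each clock motif are given with the motif in capitals.
Hdac5 (chr11:102230152-102230181, minus strand): tcggggtcgggtCACGTGacgagagtgacg
Hdac7 (chr15:97815025-97815054, minus strand): ccagctctctccTGACCTccccagccacag

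The deacetylases and Ncor1 stood at nearly the same level in both libraries. The 10 differences ran from −0.18 (Hdac6) to 0.15 (Hdac3), with a median of 0.01, and the median of all 11121 genes at 1 FPKM or more was 0.05. None of the 10 passed 1.5-fold in either direction, where 4.31% of all these genes did. Only Hdac3 and Hdac6 passed a 1.1-fold difference, 2 of 10, against 45.1% of all genes at any level from 1 FPKM up. With the median of ratios scaling Hdac3, at 0.10, no longer passed it, and the share of all genes was not recomputed. The count of differences above 0 was 6 of 10, near the 62% of all genes. It was 2 of 10 when the libraries were scaled by the median of ratios, against 50.8% of all genes. Under that scaling Hdac1, Hdac2, Hdac7 and Ncor1 turned below 0 by 0.05 or less, so their sign depends on the scaling. Hdac3 and Hdac4 stayed above 0 and Hdac5, Hdac6, Hdac8 and Hdac10 below 0 under every scaling tried. The other alternatives (pseudocounts, filters and row choice) cannot change the sign of a gene with a single row.

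**Figure D1:**
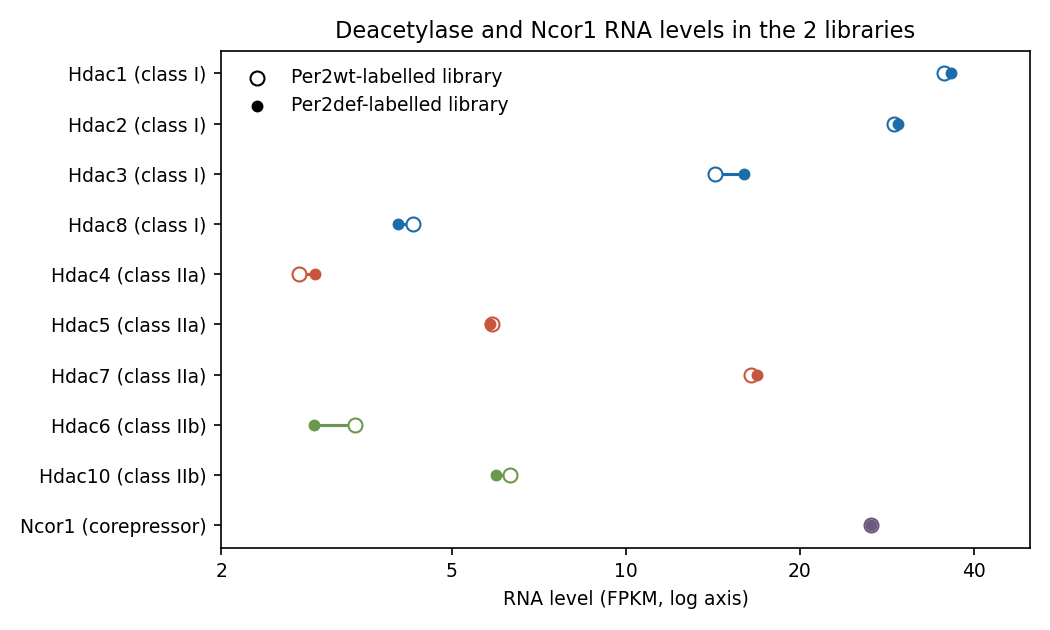
RNA level of each gene in FPKM (log axis), with an open circle for the Per2wt-labelled library and a filled circle for the Per2def-labelled library; colours mark the class. The circles nearly coincide for Ncor1, Hdac2 and Hdac5, and lie farthest apart for Hdac6 and Hdac3.

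The class I genes Hdac1 and Hdac2 were the most abundant deacetylases in both libraries. Hdac1 (ENSMUSG00000028800.15, chromosome 4, 129516104 to 129542713, minus strand, GRCm38) stood at 35.6 FPKM in the Per2wt-labelled library and 36.6 FPKM in the Per2def-labelled library, a ratio of 1.03 and a log2 difference of 0.04. Hdac2 (ENSMUSG00000019777.16, chromosome 10, 36974544 to 37001889, plus strand) stood at 29.1 and 29.5 FPKM (ratio 1.02, log2 difference 0.02). Both were among the upper ranks of expressed genes, at the 91.6th percentile of level for Hdac1 and the 89.6th for Hdac2 in each library. The ratio of Hdac1 to Hdac2, which pair with each other in the same complexes, was 1.22 in the Per2wt-labelled library and 1.24 in the other. The level of Hdac1 is less certain than that of Hdac2. Of the 50-base windows along its longest coding transcript in GENCODE M21, 56.4% occur letter for letter in the processed pseudogene Gm10093, so how Cufflinks placed such reads bears on the Hdac1 value. No such window of Hdac2 or Hdac3 occurred in a transcript of another gene.

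Hdac3 had the highest difference of the 10. The gene (ENSMUSG00000024454.16, chromosome 18, 37935844 to 37955016, minus strand) stood at 14.3 FPKM in the Per2wt-labelled library and 16.0 FPKM in the Per2def-labelled library, a ratio of 1.12 and a log2 difference of 0.15. That lies inside the middle 95% of differences of the 4354 genes at 5 to 20 FPKM, which ran from −0.33 to 0.42, and just outside their middle 50% (−0.06 to 0.14). These ranges leave out small and predicted RNAs. Scaling by the median of ratios left a difference of 0.10. Hdac8, which deacetylates the cohesin subunit SMC3, was the least abundant class I gene (ENSMUSG00000067567.12, chromosome X, 102284639 to 102505359, minus strand). It stood at 4.30 and 4.04 FPKM (ratio 0.939, log2 difference −0.07), well under Hdac3 in each library.

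Ncor1, the scaffold that holds HDAC3, had the smallest difference. The gene (ENSMUSG00000018501.17, chromosome 11, 62316426 to 62458541, minus strand) stood at 26.5 FPKM in the Per2wt-labelled library and 26.6 FPKM in the Per2def-labelled library, a ratio of 1.00 and a log2 difference of 0.003. Hdac3 thus stood at 0.539 of the Ncor1 level in the Per2wt-labelled library and at 0.602 in the other. Ncor1 overlaps Ttc19 and Pigl on the opposite strand by 12026 and 82 bases. Ttc19 stood at 2.48 and 2.57 FPKM and Pigl at 2.79 and 2.41 FPKM, both far under Ncor1, and no source used here states the strand setting of the counting.

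The other subunits of the NCoR complex went both ways. Of 4 partners, 2 were higher and 2 lower in the Per2def-labelled library, where 62% of all genes were higher. The median of the 4 was 0.08 and none passed 1.5-fold. The WD40 repeat subunits were the higher ones, Tbl1xr1 at 7.47 against 8.85 FPKM (0.22) and Tbl1x at 10.5 against 11.9 FPKM (0.16). Coro2a, a coronin family subunit and the most abundant partner, stood at 26.9 and 24.0 FPKM (−0.16). Of 10 measured nuclear receptor genes whose proteins bind NCoR, 7 were higher and 3 lower, where 62% of all genes were higher. Their median was 0.14, and under the median of ratios scaling 6 were higher, against 50.8% of all genes. The clock receptors Nr1d1, at 1.90 against 2.31 FPKM (0.19), and Nr1d2, at 2.66 against 3.27 FPKM (0.22), were among the higher ones. So were Vdr, the vitamin D receptor gene, at 1.14 against 1.53 FPKM (0.24), and the retinoid receptor gene Rxra, at 1.17 against 1.55 FPKM (0.23). Rarg, a retinoic acid receptor gene, had the widest difference of the list, at 1.95 against 1.27 FPKM (−0.38), a plain ratio of 0.653 that passes 1.5-fold only without the pseudocount, while the most abundant, Rxrb, stood at 19.7 and 18.7 FPKM (−0.07). The widest differences here belong to genes under 4 FPKM, where counting error is larger for transcripts of like length.

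**Figure D2:**
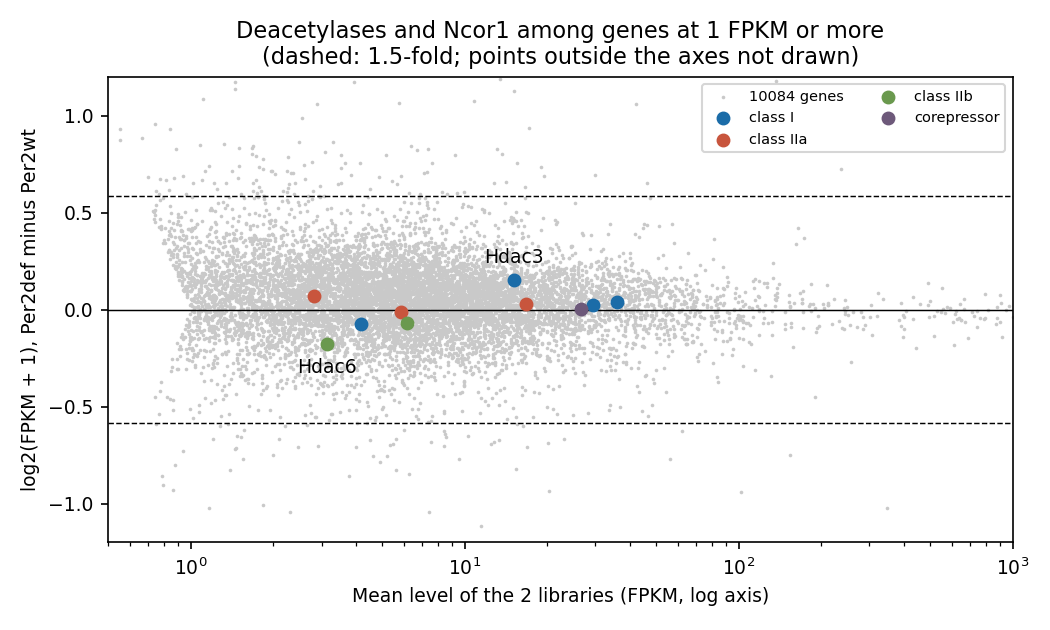
Difference of log2(FPKM + 1), Per2def-labelled library minus Per2wt-labelled library, against mean level in FPKM (log axis), for 10084 genes other than small and predicted RNAs in grey and the deacetylases and Ncor1 in colour. All 10 coloured points lie between −0.18 and 0.15, inside the dashed lines at 1.5-fold and within the grey cloud.

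Among the class IIa genes Hdac7 was the most abundant by far and Hdac4 the least. Hdac7 (ENSMUSG00000022475.19, chromosome 15, 97792664 to 97844502, minus strand), which is best known from lymphoid and endothelial cells, stood at 16.5 FPKM in the Per2wt-labelled library and 16.9 FPKM in the Per2def-labelled library (ratio 1.02, log2 difference 0.03). Its level was 6.05 times that of Hdac4 in the Per2wt-labelled library and 5.80 times in the other. Hdac5 (ENSMUSG00000008855.17, chromosome 11, 102194432 to 102230166, minus strand), the gene with the E-box printed above, stood at 5.88 and 5.82 FPKM (ratio 0.990, log2 difference −0.01). Hdac4 (ENSMUSG00000026313.16, chromosome 1, 91928779 to 92195699, minus strand) stood at 2.72 and 2.91 FPKM (ratio 1.07, log2 difference 0.07). Hdac4 lies on the chromosome of Per2, which spans 91415982 to 91459324 on the minus strand of the same build. Hdac9, the class IIa gene outside the set, was under 1 FPKM in both libraries, at 0.731 and 0.980 FPKM.

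Genes of class IIa partners ran from −0.34 to 0.15, a range over more genes than the 3 enzymes and so not like theirs. Of 20 measured genes for MEF2 factors, export kinases and 14-3-3 proteins, 11 were higher and 9 lower in the Per2def-labelled library. Over all genes 62% were higher, and the median of the 20 was 0.03 with none past 1.5-fold. With the median of ratios scaling, 9 were higher and 11 lower, where 50.8% of all genes were higher. Prkd2, which encodes a protein kinase D that phosphorylates class IIa enzymes, had the widest difference, at 8.56 against 6.55 FPKM (−0.34). Mef2a, at 3.86 against 4.38 FPKM, and Mef2d, at 14.7 against 16.4 FPKM, each differed by 0.15. Ywhae, a 14-3-3 gene whose product holds phosphorylated class IIa enzymes in the cytoplasm, was the most abundant at 103 and 99.6 FPKM (−0.04). Mef2b, Camk4 and Prkd1 were under 1 FPKM in both libraries.

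Both class IIb genes were lower in the Per2def-labelled library. Hdac6 (ENSMUSG00000031161.15, chromosome X, 7930120 to 7947889, minus strand) had the lowest difference of the 10, at 3.41 FPKM in the Per2wt-labelled library and 2.90 FPKM in the Per2def-labelled library, a ratio of 0.851 and a log2 difference of −0.18. The 4033 genes at 1 to 5 FPKM had a middle 95% from −0.39 to 0.52 and a middle 50% from −0.06 to 0.18, so Hdac6 lay inside the first range and outside the second. Hdac10 (ENSMUSG00000062906.12, chromosome 15, 89123307 to 89128700, minus strand) stood at 6.32 and 5.98 FPKM (ratio 0.946, log2 difference −0.07). The summed level of the pair was 9.73 FPKM in the Per2wt-labelled library and 8.88 FPKM in the other. Hdac11, the class IV enzyme outside the set, stood at 2.64 and 2.37 FPKM (−0.11).

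The genes of HDAC6 substrates and of the opposing tubulin acetyltransferase held the only partner gene past 1.5-fold on the log2(FPKM + 1) scale. Tuba8, an α-tubulin gene, stood at 5.21 FPKM in the Per2wt-labelled library and 2.80 FPKM in the Per2def-labelled library (ratio 0.537, log2 difference −0.71). Of the 9 measured genes 7 were higher in the Per2def-labelled library, against 62% of all genes, and the median was 0.02. That count was 3 under the median of ratios scaling, against 50.8% of all genes. Atat1, the tubulin acetyltransferase gene, stood at 3.57 and 4.21 FPKM (0.19), and Cttn, which encodes the actin-binding HDAC6 substrate cortactin, at 4.78 and 6.22 FPKM (0.32). The most abundant gene, Hsp90ab1, whose chaperone product HDAC6 deacetylates, stood at 487 and 495 FPKM (0.02). The α-tubulin genes are similar to each other and may share reads.

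Of 10 measured polyamine genes, the pathway of HDAC10, 5 were higher and 5 lower in the Per2def-labelled library. Over all genes 62% were higher, and the median of the 10 was 0.04 with none past 1.5-fold. After scaling by the median of ratios the counts were again 5 and 5, against 50.8% of all genes higher, and the median was −0.01. Sat1, which encodes the enzyme that acetylates spermidine and spermine, stood at 7.85 and 9.96 FPKM (0.31). Odc1, the ornithine decarboxylase gene at the entry of the pathway, stood at 37.4 and 44.3 FPKM (0.24), and Azin1, whose product protects that enzyme from its antizyme, at 8.86 and 10.6 FPKM (0.24). Oaz1, the antizyme gene, was the most abundant at 102 and 109 FPKM (0.09). The 5 lower genes were Srm, at 47.8 and 41.9 FPKM (−0.19), Paox (−0.16), Smox (−0.09), Oaz2 (−0.07) and Amd2 (−0.004).

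Of 13 cohesin genes, the pathway of HDAC8, 12 were higher in the Per2def-labelled library, where 62% of all genes were, and their median was 0.08 against 0.05 for all genes. After scaling by the median of ratios 9 of 13 were higher, against 50.8% of all genes. Smc3, the HDAC8 substrate, had the widest difference at 19.5 against 23.7 FPKM (0.27), which is a ratio of 1.21. Esco1, one of the acetyltransferase genes that oppose HDAC8, stood at 2.96 and 3.44 FPKM (0.16). Esco2, the other such gene in the list, was the only lower gene of the 13, at 3.15 and 2.94 FPKM (−0.08). Wapal, the release factor gene, stood at 13.6 and 15.5 FPKM (0.17). Smc1a was the most abundant at 35.3 and 38.0 FPKM (0.10). None of the 13 passed 1.5-fold.

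**Figure D3:**
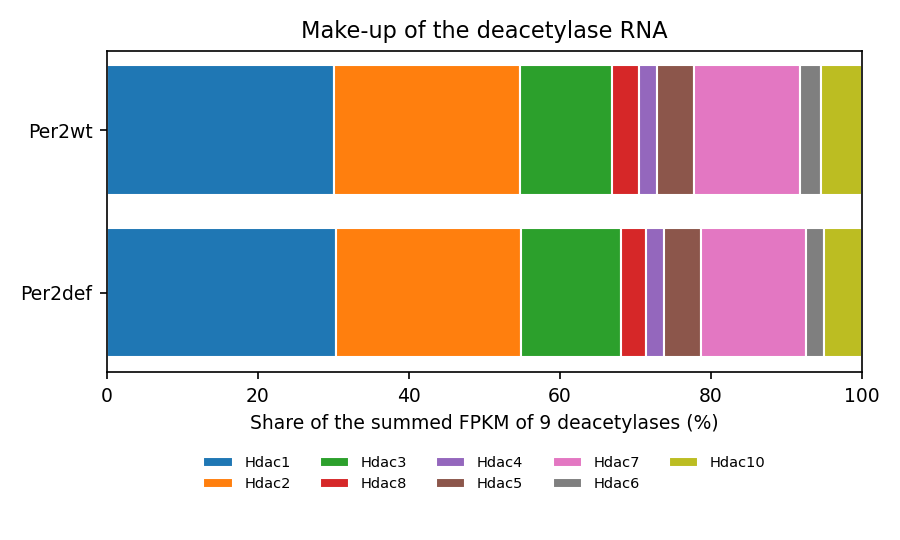
Share of each deacetylase in the summed FPKM of the 9 deacetylase genes, 1 bar per library. Hdac1, Hdac2 and Hdac3 with Hdac8 make up 70.5% of the bar of the Per2wt-labelled library and 71.4% of the other.

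The make-up of the deacetylase RNA was nearly the same in both libraries. The 9 genes summed to 118 FPKM in the Per2wt-labelled library and 121 FPKM in the Per2def-labelled library, a ratio of 1.02. Class I held 70.5% and 71.4% of that sum, class IIa 21.3% and 21.2%, and class IIb 8.24% and 7.36%. Hdac1 alone held 30.1% and 30.3%, Hdac2 24.6% and 24.5%, Hdac7 14.0% in both and Hdac3 12.1% and 13.3%. The order of level from Hdac1, Hdac2, Ncor1, Hdac7, Hdac3, Hdac10 and Hdac5 down to Hdac8 was the same in both libraries. Only the lowest pair changed places, with Hdac6 at 3.41 FPKM and Hdac4 at 2.72 FPKM in the Per2wt-labelled library, and at 2.90 and 2.91 FPKM in the other. Neighbours in that order were close for Hdac10 and Hdac5 (a ratio of 1.08 and 1.03) and for Hdac2 and Ncor1 (1.10 and 1.11). The widest step was from Hdac3 to Hdac10, 2.26 times in the Per2wt-labelled library and 2.68 times in the other. With no replicate, no step can be set against a spread.

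A split by level, chosen after the values were seen, put 5 genes at a mean of 10 FPKM or more (Hdac1, Hdac2, Hdac3, Hdac7 and Ncor1), and all 5 were above 0 before rescaling. Of other than small and predicted RNAs, 58.6% of genes at that level were above 0. Of the 5 genes under 10 FPKM, 1 was above 0 (Hdac4), against 63.5% of genes at 1 to 10 FPKM. After scaling by the median of ratios only Hdac3 and Hdac4 were above 0, against 50.8% of all genes.

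Some subunits of the HDAC1 and HDAC2 complexes lay farther from 0 than any of the enzymes. The complex lists together hold more genes than the enzymes, and a longer list reaches farther out more easily. Of 16 SIN3 complex genes 9 were higher and 7 lower in the Per2def-labelled library, where 62% of all genes were higher. Their median was 0.02. Scaling by the median of ratios made it 7 higher and 9 lower, where 50.8% of all genes were higher. Sap30, a small SIN3 subunit that bridges to HDAC1, stood at 14.0 against 10.3 FPKM (−0.40), and Arid4b at 4.55 against 5.65 FPKM (0.26). Sap18 stood at 3.71 and 4.28 FPKM (0.16). The histone chaperone gene Rbbp7, shared with NuRD, was the most abundant at 53.4 and 51.4 FPKM (−0.06).

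Of 12 measured NuRD genes 8 were higher, against 62% of all genes, with a median of 0.07. The count was 7 after scaling by the median of ratios, against 50.8% of all genes. Gatad2b, which links the methyl-DNA-binding subunit to the remodeller, stood at 9.64 and 12.9 FPKM (0.38), and Mbd2, one of those methyl-binding subunits, at 23.0 and 27.0 FPKM (0.23). Mta3, a scaffold that holds HDAC1 and HDAC2, was the lowest of the 4 lower genes at 17.7 and 14.6 FPKM (−0.26). Chd4, the remodeller ATPase gene, was the most abundant at 57.5 and 59.5 FPKM (0.05, below 0 after scaling by the median of ratios).

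Of 10 CoREST genes 8 were higher, against 62% of all genes, with a median of 0.11. After scaling by the median of ratios the count was again 8, against 50.8% of all genes. Zmym3 stood at 6.85 and 8.35 FPKM (0.25), Zmym2 at 3.68 and 4.45 FPKM (0.22) and the scaffold gene Rcor3 at 2.99 and 3.50 FPKM (0.17), while Gse1, the most abundant, stood at 17.3 and 15.5 FPKM (−0.15). Of 6 scaffold genes of the MIER and mitotic deacetylase complexes 4 were higher, against 62% of all genes, with a median of 0.10. They were led by Mier1 at 6.92 against 8.74 FPKM (0.30), and Mier3 stood at 4.17 and 4.66 FPKM (0.13). Mier2 stood at 4.34 and 3.91 FPKM (−0.12) and Dnttip1, the most abundant, at 15.7 and 14.5 FPKM (−0.10). No gene of these 4 complex lists passed 1.5-fold.

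The opposing enzymes, the histone acetyltransferases, were above 0 in 11 of 11 cases. Their median was 0.13, against 0.05 for all genes at 1 FPKM or more, of which 62% were above 0. After scaling by the median of ratios 9 of 11 were above 0, against 50.8% of all genes, with Crebbp and Hat1 below. The median of the 11 was then 0.09. Kat8, which acetylates histone H4, stood at 5.56 and 7.10 FPKM (0.30), Kat2b, also called PCAF, at 2.33 and 2.97 FPKM (0.25) and Kat5, the TIP60 gene, at 8.85 and 10.5 FPKM (0.22). Hat1, which acetylates newly made histone H4 and was the most abundant, stood at 25.9 and 26.0 FPKM (0.005). None passed 1.5-fold. The summed FPKM of 11 zinc-dependent deacetylase genes, with Hdac9 and Hdac11, was 1.14 times that of the 11 acetyltransferase genes in the Per2wt-labelled library and 1.08 times in the other.

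**Figure D4:**
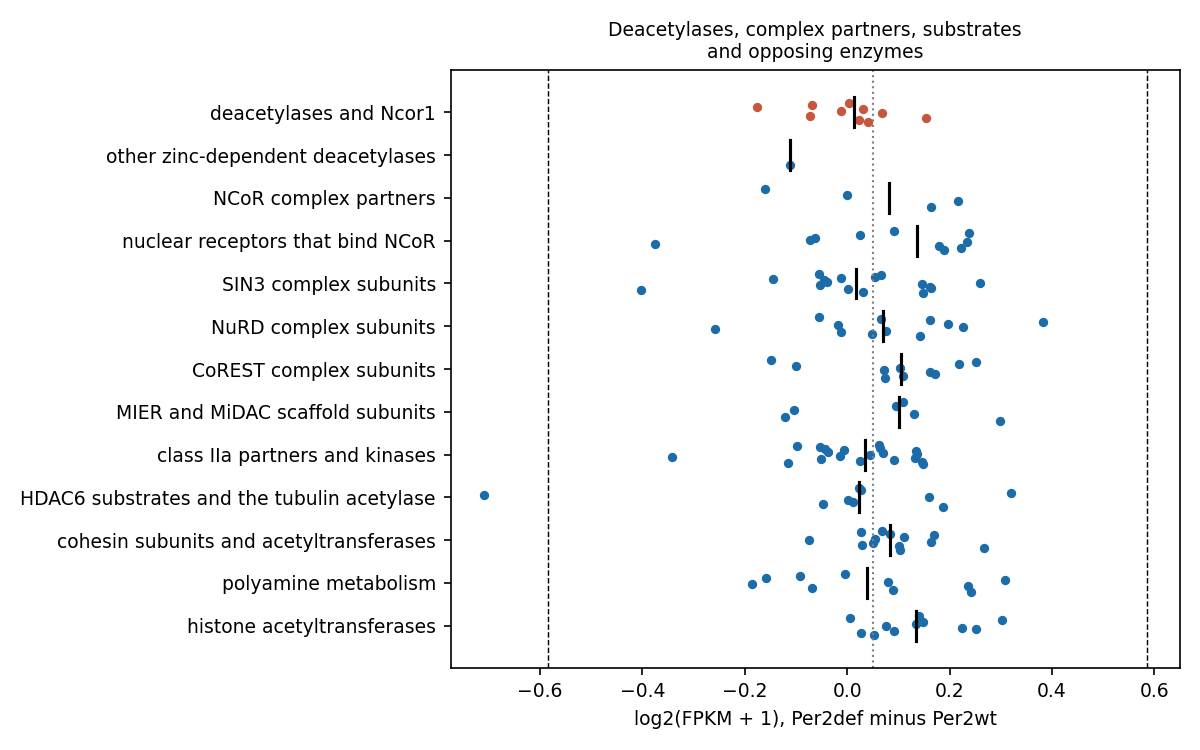
Each point is a gene that reached 1 FPKM in either library, placed by its difference of log2(FPKM + 1), Per2def-labelled library minus Per2wt-labelled library; black bars are list medians, the dotted line is the median of all such genes (0.05) and dashed lines mark 1.5-fold. The deacetylases and Ncor1 lie between −0.18 and 0.15, and Tuba8 at −0.71 is the only point past a dashed line.

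Other cells could contribute to these bulk values, and in bulk RNA fewer cells of a type and less RNA per cell cannot be told apart. Of 10 stem and progenitor markers 9 reached 1 FPKM, with a summed level of 245 and 244 FPKM carried by Cd34, Flt3 and Kit, and Slamf1 was under 1 FPKM in both libraries. Cd48, a marker of progenitors past the stem cell stage, stood at 16.0 and 22.6 FPKM (0.47) and the stem cell gene Hlf at 20.3 and 15.8 FPKM (−0.34), both outside the middle 95% of genes of their level. Over all genes at 1 FPKM or more, 62% were higher in the Per2def-labelled library and 4.31% passed 1.5-fold in either direction. Neutrophil markers summed to 531 FPKM in the Per2wt-labelled library and 1014 FPKM in the Per2def-labelled library, with 12 of 13 measured genes higher. Monocyte, macrophage and dendritic markers summed to 59.8 and 83.0 FPKM (6 of 6 measured higher), with Emr1, Itgax and Fcgr1 under 1 FPKM in both libraries. T and NK cell markers summed to 37.9 and 48.6 FPKM (6 of 6 measured higher). Most of that sum was Nkg7, at 23.7 and 28.4 FPKM, and Lat, at 8.75 and 9.26 FPKM. Cd3g and Cd4 reached 1 FPKM only in the Per2def-labelled library. Cd3d, Cd3e, Cd247, Cd8a, Klrb1c and Ncr1 were under 1 FPKM in both libraries. Megakaryocyte markers summed to 51.3 and 41.6 FPKM, and most of that gap was Thbs1, at 8.70 against 0.996 FPKM. Erythroid markers summed to 800.0 and 752 FPKM with members moving apart, 2 past 1.5-fold higher and 5 lower. Car1 stood at 177 and 294 FPKM, whereas the globin gene Hba-a1 stood at 193 and 115 FPKM. Endothelial and stromal markers summed to 15.5 and 18.6 FPKM with 3 of 8 genes measured, and Cdh5, Kdr and Col1a1 were near 0. Of B cell markers only Cd79b was measured, Igll1 was listed at 0 in both libraries, and the list summed to 6.94 and 6.55 FPKM. The part of these markers in the deacetylase values was not tested.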

How the data were processed

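RNA was measured in 2 libraries of haematopoietic stem cells from mouse bone marrow. Per the labels' protocols, poly(A) RNA was made into libraries with a kit that marks strand. The authors deposited FPKM per gene from Cufflinks, as the file headers show. CASAVA 1.8, TopHat, Bowtie2 and the builds GRCm38 and mm10 are also named, per the submitters' processing notes. No source used here states the gene annotation, filters, strand setting or other versions. FPKM are relative to each library's total, and near-identical copies can share reads.

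Groups came from the genotype label. Of 24487 rows, 9 without an estimate and 27 whose symbols had become dates were left out. Rows sharing a symbol were summed, leaving 23961 symbols. Differences used a pseudocount of 1 FPKM. Counts used a threshold of 1.5-fold, with a further count at 1.1-fold that was not planned, and the 11121 genes that reached 1 FPKM in either library. Of these, 1037 were classed by symbol as small or predicted RNAs. No test was run, because each genotype has 1 library. Member genes, 12 partner lists and 8 marker lists were chosen with earlier results of these data known. One listed partner gene is not reported here.

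Named partners were the most abundant gene of each list, up to 3 with the widest difference and any past 1.5-fold. Mef2b, Camk4, Prkd1, Crebbp, Ttc19, Pigl and the marker genes lie outside that rule and were picked with their values known. The same holds for Srm, Paox, Smox, Oaz2, Amd2 and Esco2. CCAAT and GC boxes were also chosen after the clock motifs had been searched. Positions came from GENCODE M21 (GRCm38) by symbol. Alternatives were scalings, pseudocounts, filters, row choice and thresholds, and the partner lists were rescaled after seeing the data. Python 3.11.15, pandas 2.3.3 and numpy 2.4.6 were used.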

Additional observations from a re-analysis of the deposited data

How the results depend on the processing

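The median difference of the 10 genes moved by less than 0.1 on the log2 scale under all 10 alternatives tried for it, and its sign was not stable. It was 0.01 as reported, 0.02 with a floor of 5 FPKM or without Ncor1, and −0.04 after scaling by the median of ratios, while their mean was −0.001. The count above 0 was 6 of 10, against 62% of all genes, and went to 2 under the median of ratios scaling, against 50.8%. That scaling lowers the Per2def-labelled library by 0.05 on the log2 scale, about the median difference of all genes. No gene of the 10 passed 1.5-fold under any alternative tried, or the lower and higher thresholds listed as alternatives. Single gene values moved by under 0.1 in all 77 recomputed cases, but that limit was too wide to test them. It exceeded the median difference (0.01) and the median absolute difference (0.054) of the 10 genes. Filters and row choice leave a gene with a single row unchanged, and the strongest scaling has a log2 factor of −0.0549. Hdac1, Hdac2, Hdac7 and Ncor1 turned to −0.013, −0.031, −0.021 and −0.049 under the median of ratios scaling and still counted as unmoved. No paired analysis was possible because each genotype has 1 library and the labels carry no replicate number. Absolute depth is unknown, so no counting error can be given for any difference. Counting error depends on transcript length as well as on FPKM. Hdac4, Hdac6 and Hdac8 were all under 5 FPKM, with longest coding transcripts of 8100, 4142 and 1936 bases. Hdac10 stood a little higher, with 2412 bases, so FPKM alone does not rank the genes by counting error.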
